A study of Mus musculus with 6 samples.

Results

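The TCF/LEF transcription factors and the nuclear proteins and targets that work with them were followed in the corpus, the main body of the mouse stomach, whose glands make acid and pepsinogen. The set holds 10 genes, taken by name from a deposited table of 18988 rows: the 4 factors Lef1, Tcf7, Tcf7l1 and Tcf7l2, the beta-catenin adaptors Bcl9, Bcl9l and Pygo2, and the target genes Sp5, Prox1 and Myc. RNA came from corpus tissue of 6 mice on a C57BL/6 background, 1 mouse per library. The controls were 3 mice of genotype Ras;APC FF (replicates 1 to 3), and 3 further mice were PGC;Ras;APC FF (replicates 4 to 6), so the Ras and APC FF components were shared by both groups and PGC was the added component. What PGC and FF stand for is not spelled out, and neither age nor sex is given by the labels, nor is any induction scheme.

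Wnt signalling ends in the nucleus. In its absence TCF/LEF proteins sit on target genes together with TLE corepressors, and the APC-containing destruction complex keeps beta-catenin low. When beta-catenin accumulates it enters the nucleus and binds TCF/LEF, and BCL9 and Pygopus proteins join it as adaptors that help to switch the target genes on. TCF7L1 acts mostly as a repressor and LEF1 mostly as an activator, while TCF7 and TCF7L2 can do both. Lef1, Tcf7, Sp5, Prox1 and Myc are themselves Wnt targets in several tissues. In the gastric corpus, Wnt signals are weaker than in the antrum and act near the gland base.

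Expression is given as FPKM (fragments corrected for gene length and library size), so levels of different genes can be compared per length. Genes with at least 1 FPKM in at least 3 libraries were tested with limma on log2(FPKM + 1), with Benjamini-Hochberg adjustment across the whole set of 11857. In that comparison 13 genes rose (0.11%) and 5 fell, together 0.152% of those tested, and 4196 genes (35.4%) had an unadjusted p under 0.05. Over all tested genes the median log2 change was 0.26 as deposited and -0.0027 after median-of-ratios scaling. A log2 change near 0.26 is thus where the whole table lay. The 3 most abundant genes of a library held 48.1%, 43.9% and 38.0% of its summed FPKM in the controls. In replicates 4 to 6 they held 32.7%, 31.7% and 16.1%. Counts of genes with every PGC;Ras;APC FF library above or below every control use the values as deposited. Relative depth, estimated from low values of short RNAs, lay between 0.767 and 1. Replicate 6 stood apart, with correlations across genes of log2 values to single controls of 0.904 to 0.909, against 0.965 to 0.981 for replicates 4 and 5. The 10 corpus markers summed to 273000 to 295000 FPKM in the controls and 137000 to 207000 in replicates 4 to 6. Pgc was the most abundant of the 10 in the controls, so these sums depend largely on it and do not describe the other markers. Of the 10, 4 had a positive and 6 a negative log2 change, and 0 rose or fell. Their median log2 change was -0.083. The chief cell zymogen gene Pgc was at 194208, 170504 and 140325 FPKM in the controls and 87455, 78757 and 16059 in replicates 4 to 6. Every PGC;Ras;APC FF mouse thus lay below every control for Pgc, which held for 5.47% of all tested genes. The pit cell gene Tff1 was at 34865, 43569 and 69073 FPKM in the controls and 55937, 55997 and 62196 in replicates 4 to 6. Of 5 squamous epithelium markers, Krt5, Krt14 and Trp63 were at most 0.22 FPKM in every library, while Krt13 was 0.83, 0.24 and 0.16 FPKM in the controls and 2.34, 3.01 and 4.63 in replicates 4 to 6. The Y-linked gene Eif2s3y was read in control replicate 3 alone, at 13.15 FPKM, so that library differs from the others by sex as well. Apc was at 2.39 ± 0.317 and 3.07 ± 0.857 FPKM in the groups (SD, n = 3 each), a gene-level value that does not separate altered from unaltered alleles.

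In PGC;Ras;APC FF corpus the 4 genes Lef1, Tcf7, Sp5 and Prox1 stood above the controls in every mouse, least so in replicate 5 (from 2.17 times the control mean for Tcf7 to 6.71 times for Lef1), Myc and Pygo2 exceeded them in every mouse with ratios of group means of 1.77 and 1.59, and Tcf7l1 and Bcl9l lay in or near the control range. Tcf7l2 and Bcl9 came between, with ratios of 1.52 and 1.54 that rested mainly on replicate 6. Of the 10 genes, 8 passed the filter on low values and were tested, and 0 of 8 passed the adjusted threshold with all 6 libraries, against 0.152% of all tested genes. In 4 of the 8 the unadjusted limma p was under 0.05, against 35.4% of all tested genes. Every PGC;Ras;APC FF library exceeded every control for 5 of the 8, which held for 42.7% of all tested genes, and for 7 of the 10, which held for 31.9% of all rows. A log2 change of at least 1 was seen in 2 of the 8, Sp5 and Tcf7, and in 3.63% of tested genes. Without replicate 6, Sp5 and Pygo2 rose (2 of 8), as did 7.17% of the genes tested there. A setting added after seeing the data kept the same tested genes. In it Sp5, Tcf7 and Pygo2 rose (3 of 8), as did 8.11% of all tested genes. Without replicate 1, 2 or 3, 0 of 8 passed, as did 0 genes of the whole table. Without replicate 4, 0 of 8 passed, against 0.0431% of the genes tested there. Without replicate 5, 2 of 8 rose, Sp5 and Tcf7, against 3.54%, and with library weights that count replicate 6 less, 4 of 8 rose, against 26.6%. With no filter on low values 0 of the 10 passed, and 0.0474% of all rows did. Labels for replicates give no culture, litter or day, and p-values measure the spread between these mice only.

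**Figure D1:**
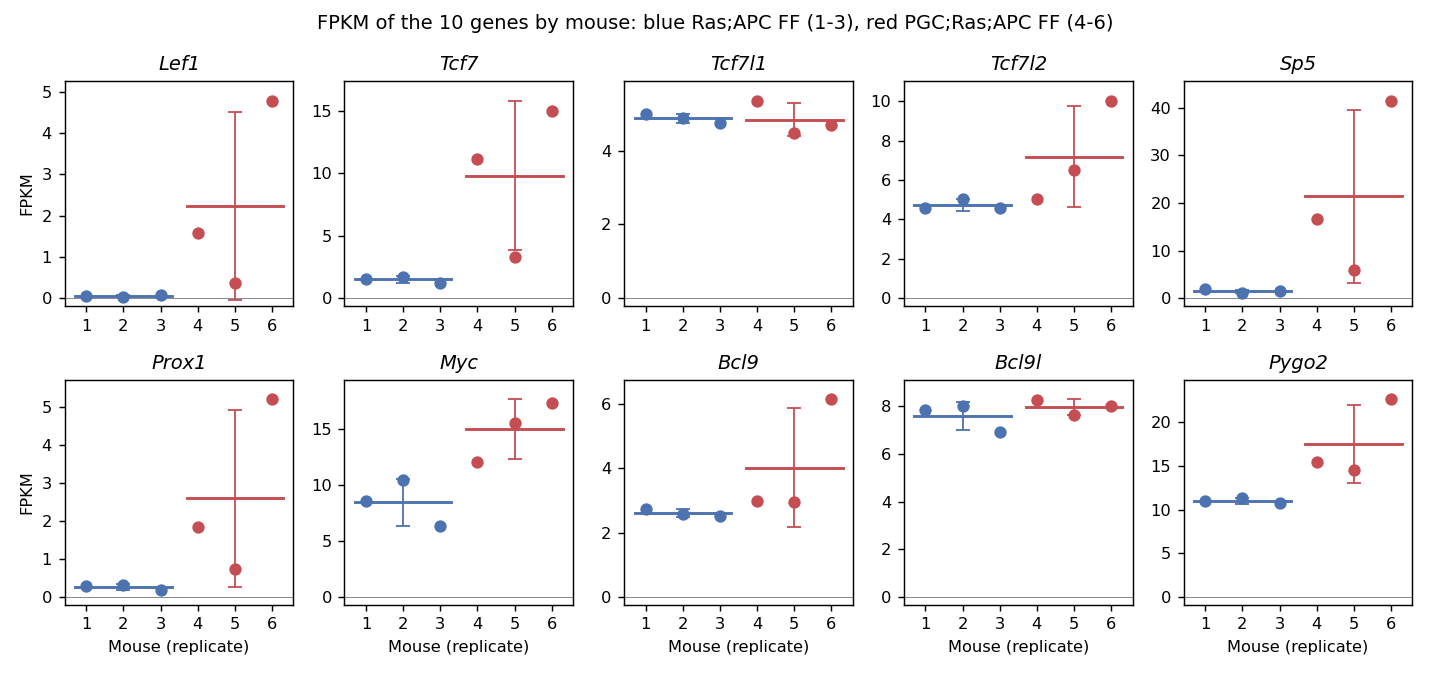
FPKM of each of the 10 genes (vertical axis) in each mouse (horizontal axis), with control mice in blue and PGC;Ras;APC FF mice in red. Horizontal lines are group means and error bars SD (n = 3 each); Sp5 spans 1.19 to 1.84 FPKM in the controls and 5.91 to 41.46 in the other mice, while Tcf7l1 stays between 4.49 and 5.35 in all 6 mice.

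Lef1, which encodes the lymphoid enhancer-binding factor (chromosome 3, 131110471 to 131224356, plus strand), was close to silent in control corpus. Its level was 0.06, 0.04 and 0.07 FPKM in control replicates 1 to 3 and 1.57, 0.38 and 4.78 FPKM in replicates 4 to 6. All 3 PGC;Ras;APC FF mice exceeded all 3 controls, at 27.7, 6.71 and 84.4 times the control mean. The group means were 0.0567 ± 0.0153 and 2.24 ± 2.28 FPKM (SD, n = 3 each), a ratio of 39.6 that rests on control values only a few hundredths above 0. With 2 libraries at 1 FPKM or more, Lef1 did not enter the test. An exact two-sided permutation test on log2(FPKM + 1) gave p = 0.1, the smallest that 3 against 3 mice allow, and limma without the filter gave a log2 change of 1.37 ± 0.48 (SE) and an adjusted p of 0.159. Without replicate 6 the log2 difference of the group means was 0.83. Lef1 shares 1208 exonic bases with an antisense gene in GENCODE, and strandedness is not given in the sources used here, so reads from that stretch cannot be assigned.

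Tcf7, which encodes TCF1 (chromosome 11, 52252371 to 52283014, minus strand), was low but present in controls, at 1.58, 1.74 and 1.20 FPKM. In replicates 4 to 6 it was at 11.16, 3.27 and 15.02 FPKM. The groups did not overlap, replicate 5 lay nearest to the controls, and the means were 1.51 ± 0.277 and 9.82 ± 5.99 FPKM (SD, n = 3 each). On the log2 scale it differed by 1.91 ± 0.44 (SE), above that of 99.2% of tested genes, with a limma adjusted p of 0.085. Without replicate 5 Tcf7 rose (log2 change 2.48, limma adjusted p = 0.00153). Without replicate 6 the change was 1.53 and lay at the threshold (limma adjusted p = 0.05004, and 0.0494 with the tested genes kept).

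Tcf7l1, the member of the family known chiefly as a repressor (chromosome 6, 72626378 to 72789254, minus strand), was at 4.98, 4.89 and 4.75 FPKM in the controls and 5.35, 4.49 and 4.69 in replicates 4 to 6. The groups overlapped, and replicates 4 to 6 lay on both sides of the control mean. Its log2 change was -0.01 ± 0.12 (SE, limma adjusted p = 0.956) as deposited and -0.27 (adjusted p = 0.232) after median-of-ratios scaling. Tcf7l1 shares 179 exonic bases with an antisense gene.

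Tcf7l2, which encodes TCF4, the factor that maintains the intestinal crypt (chromosome 19, 55741820 to 55933654, plus strand), was at 4.57, 5.06 and 4.57 FPKM in the controls. It was at 5.02, 6.53 and 10.02 FPKM in replicates 4 to 6. Replicate 4 lay within the control range and replicate 6 was 2.12 times the control mean. Its log2 change was 0.47 ± 0.22 (SE, limma adjusted p = 0.159), and 0.23 without replicate 6 (adjusted p = 0.248), close to the 0.17 that was then the median of all tested genes.

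The makeup of the family differed between the groups. In controls, Tcf7l1 and Tcf7l2 held 43.7% ± 1.74 and 42.4% ± 1.33 of the summed FPKM of the 4 genes, Tcf7 held 13.4% ± 1.85 and Lef1 0.513% ± 0.161 (SD, n = 3). In PGC;Ras;APC FF the share of Tcf7 was 48.3%, 22.3% and 43.5% in replicates 4 to 6 and that of Lef1 6.80%, 2.59% and 13.9%. Tcf7 was thus the most abundant of the 4 transcripts in replicates 4 and 6, while in replicate 5 Tcf7l2 was. The share of Tcf7l1 was 23.2%, 30.6% and 13.6% in these mice, below every control. Shares of Lef1, Tcf7 and Tcf7l1 did not overlap between groups, each with an exact two-sided permutation p of 0.1, the smallest possible here, while that of Tcf7l2 did overlap (21.7%, 44.5% and 29.0%, exact permutation p = 0.4). Summed over the 4 genes the level was 11.19, 11.73 and 10.59 FPKM in the controls and 23.10, 14.67 and 34.51 in replicates 4 to 6. These shares do not depend on how a library is scaled, but a rise in Tcf7 lowers the share of the others by construction. Per length, Tcf7 was at 0.309 ± 0.0521 of the level of Tcf7l1 in controls and at 2.09, 0.728 and 3.20 of it in replicates 4, 5 and 6. Both Lef1 and Tcf7 also make short proteins without the beta-catenin-binding end, and gene-level FPKM do not tell these apart from the full-length forms.

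**Figure D2:**
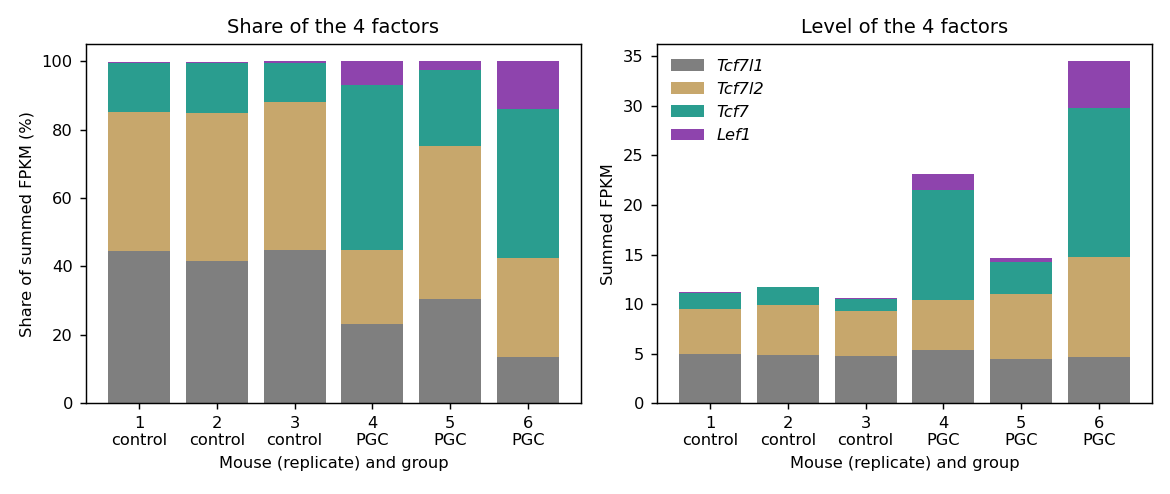
The left panel gives the share of each of Tcf7l1, Tcf7l2, Tcf7 and Lef1 in their summed FPKM (percent, vertical axis) for each mouse, and the right panel the same 4 genes as FPKM, with bars stacked in both. Tcf7 and Lef1 take 11.3% to 14.8% and 0.341% to 0.661% in the 3 controls, and 22.3% to 48.3% and 2.59% to 13.9% in the 3 PGC;Ras;APC FF mice.

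Lef1 and Tcf7 are also expressed by T cells, and T cell markers were read beside them. The 9 T cell markers summed to 3.19 to 3.35 FPKM in the controls and to 7.52, 4.13 and 15.7 FPKM in replicates 4, 5 and 6. That is the same order of mice as for Lef1 and Tcf7, an order that also held for 41.5% of all tested genes. None of the 9 was at 0 in every library. The T cell receptor subunit gene Cd3e was at 0.33, 0.28 and 0.51 FPKM in the controls and at 0.90, 0.60 and 3.04 in replicates 4 to 6. Of the 2 markers that were tested neither passed: Cd3g had group means of 0.79 FPKM (control) and 2.56 FPKM (PGC;Ras;APC FF) (limma adjusted p = 0.107), and Cd4 had 1.22 and 1.67 (0.301). The B cell receptor subunit gene Cd79a was at 0.71, 1.02 and 0.84 FPKM in the controls and 4.06, 1.88 and 5.47 in replicates 4 to 6 (limma adjusted p = 0.085). Cd3g, at 0.91, 0.92 and 0.54 FPKM in the controls, passed the filter through the PGC;Ras;APC FF libraries alone. Cd79a needed those libraries too, with control replicate 2 the only control at 1 FPKM. The p-values of Cd3g and Cd79a are thus given as values only. The part of lymphocytes in the levels of Lef1 and Tcf7 was not tested, and in bulk tissue a different number of cells of a type and a different amount of RNA per cell cannot be told apart.

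The adaptors that link beta-catenin to the transcription machinery differed among themselves. Pygo2, a Pygopus protein that reads methylated histone H3 and binds BCL9 (chromosome 3, 89430214 to 89435128, plus strand), was the most abundant of the 10 genes in controls, at 10.96, 11.34 and 10.70 FPKM. In replicates 4 to 6 it was at 15.40, 14.54 and 22.62 FPKM. Every PGC;Ras;APC FF mouse lay above every control, with a narrow spread in controls and replicate 6 apart. Its log2 change was 0.60 ± 0.18 (SE, limma adjusted p = 0.0901), or 0.34 above the median of all tested genes. After median-of-ratios scaling it was 0.31 (limma adjusted p = 0.151). Without replicate 6 Pygo2 rose (log2 change 0.41, limma adjusted p = 0.0477), as did 7.17% of the genes tested there.

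Bcl9, which bridges beta-catenin and Pygopus (chromosome 3, 97203662 to 97297917, minus strand), was at 2.74, 2.57 and 2.53 FPKM in the controls and at 2.98, 2.94 and 6.14 in replicates 4 to 6. Replicates 4 and 5 lay just above the highest control, and replicate 6 was 2.35 times the control mean. Its log2 change was 0.42 ± 0.23 (SE, limma adjusted p = 0.223), and 0.13 without replicate 6, when the median of all tested genes was 0.17. Its paralog Bcl9l (chromosome 9, 44482825 to 44511896, plus strand) was at 7.82, 8.01 and 6.92 FPKM in the controls and 8.25, 7.61 and 8.02 in replicates 4 to 6, with overlapping groups. Its log2 change was 0.06 ± 0.12 (SE, limma adjusted p = 0.704) as deposited and took the other sign after median-of-ratios scaling (-0.21, adjusted p = 0.296). Bcl9l was thus the more abundant paralog per length in all 6 mice, with Bcl9 at 0.346 ± 0.0228 of its level in controls and at 0.361, 0.386 and 0.766 of it in replicates 4 to 6 (exact permutation p = 0.2). Bcl9l shares 662 and 110 exonic bases with genes on the opposite strand, the second of them Cxcr5.

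Among the targets, Sp5 differed most of the 8 tested genes. Sp5 encodes a zinc finger factor of the Sp family that is switched on by beta-catenin and dampens other Wnt targets (chromosome 2, 70474923 to 70477729, plus strand). Its promoter is shown because it carries the letters that TCF/LEF proteins bind. A window from 250 bases before to 50 bases after each RefSeq gene start (build GRCm38) was searched on both strands for the 4 forms CTTTGAA or CTTTGAT and also CTTTGTA or CTTTGTT, which differ in their last 2 letters; matches on opposite strands may share end letters. The Sp5 window, chr2:70474673-70474972 on the plus strand, holds 2 matches in capitals, CTTTGTT on the opposite strand (printed as its reverse complement) 222 bases before the start, and CTTTGAT on the gene's own strand 104 bases before it.
Sp5: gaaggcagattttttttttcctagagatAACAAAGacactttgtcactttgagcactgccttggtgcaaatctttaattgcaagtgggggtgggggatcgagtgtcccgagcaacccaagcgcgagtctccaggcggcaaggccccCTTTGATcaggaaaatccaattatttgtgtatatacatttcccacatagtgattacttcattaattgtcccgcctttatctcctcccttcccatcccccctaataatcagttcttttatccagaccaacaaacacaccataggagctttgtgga
At least 1 match was present in 16.9% of the 32851 windows in the table and 2 or more in 1.94%. Of the 10 genes, 8 had a window and 3 had a match in any of their windows, against 18.9% of all genes in the table. Genes with more windows have more places for a match, and these 8 genes had 16 windows. By window, 3 of the 16 held a match, close to the 16.9% of all windows. The other matches lay in windows of later starts inside Lef1 (chr3:131156044-131156343, plus strand, CTTTGTA on the opposite strand 147 bases before the start) and Tcf7l2 (chr19:55895071-55895370, plus strand, CTTTGTT 14 bases before the start), again in capitals and shown so that the surroundings of the letters can be compared.
Lef1: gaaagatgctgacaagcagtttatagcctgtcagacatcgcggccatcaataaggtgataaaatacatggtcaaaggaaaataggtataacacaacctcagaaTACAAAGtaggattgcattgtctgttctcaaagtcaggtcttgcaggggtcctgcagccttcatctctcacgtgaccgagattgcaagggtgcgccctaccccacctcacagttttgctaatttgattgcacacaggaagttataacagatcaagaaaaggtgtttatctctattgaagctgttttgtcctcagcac
Tcf7l2: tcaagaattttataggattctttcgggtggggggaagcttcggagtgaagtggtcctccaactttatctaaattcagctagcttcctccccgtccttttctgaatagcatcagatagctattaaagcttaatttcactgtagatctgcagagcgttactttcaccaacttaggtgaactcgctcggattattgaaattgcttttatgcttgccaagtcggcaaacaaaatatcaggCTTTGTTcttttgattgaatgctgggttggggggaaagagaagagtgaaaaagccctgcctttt
A match describes letters in a window and not a bound site, and binding was not measured in this series.

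Sp5 was at 1.84, 1.19 and 1.49 FPKM in the controls and at 16.71, 5.91 and 41.46 in replicates 4 to 6. The lowest PGC;Ras;APC FF mouse was thus 3.92 times the control mean and the highest 27.5 times. The group means were 1.51 ± 0.325 and 21.4 ± 18.2 FPKM (SD, n = 3 each). Sp5 went from level with Tcf7, in the lower part of the 10 genes, to the highest mean of all 10, although in replicate 5 it lay below Pygo2, Myc, Bcl9l and Tcf7l2. The log2 difference was 2.80 ± 0.56 (SE), above 99.6% of tested genes, with a limma adjusted p of 0.085. Sp5 rose without replicate 5 (log2 change 3.46, limma adjusted p = 0.00349) and without replicate 6 (2.15, adjusted p = 0.0324). Of the 8 Sp family genes other than Sp5, 4 were tested and 0 rose or fell, with a median log2 change of 0.04 against 0.26 for all tested genes. The most abundant, Sp3 and Sp2, had control means of 10.2 and 6.51 FPKM and PGC;Ras;APC FF means of 9.89 and 7.16, and Sp7, Sp8 and Sp9 were at most 0.05 FPKM in any mouse.

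Prox1, a homeobox factor of lymphatic endothelium that also marks Wnt-driven growth in the colon (chromosome 1, 190118035 to 190170714, minus strand), was at 0.29, 0.31 and 0.18 FPKM in the controls. It was at 1.85, 0.74 and 5.21 FPKM in replicates 4 to 6. All 3 PGC;Ras;APC FF mice exceeded the controls, at 7.12, 2.85 and 20.0 times the control mean. The means were 0.26 ± 0.07 and 2.60 ± 2.33 FPKM (SD, n = 3 each), with an exact two-sided permutation p of 0.1, the smallest possible. Prox1 did not enter the test, and limma without the filter gave a log2 change of 1.32 ± 0.44 (SE) and an adjusted p of 0.153. Without replicate 6 the log2 difference of the group means was 0.82. Prox1 shares 133 exonic bases with its antisense gene Prox1os.

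Markers of cell types known for Prox1 were read beside it, and their part in its level was not tested. The 6 lymphatic endothelium markers summed to 27.5 to 39.6 FPKM in the controls and 21.3 to 43.9 in replicates 4 to 6, lowest in replicate 5. The hyaluronan receptor gene Lyve1 was at 4.00, 3.06 and 5.11 FPKM in the controls and 2.95, 2.35 and 2.53 in replicates 4 to 6, and the lymphatic receptor gene Flt4 at 1.22, 1.00 and 1.38 against 1.35, 0.90 and 1.40. Among the 5 tested, 0 rose or fell; Ccl21a was at 23.0 and 18.8 FPKM in the group means and Pdpn at 5.68 and 9.67. The 6 endocrine cell markers summed to 3290 to 4070 FPKM in the controls and to 3240, 3240 and 925 in replicates 4, 5 and 6, and 0 of 6 passed. The hormone gene Ghrl was at 2426, 2437 and 723 FPKM in these mice against a control mean of 2720, and Sst at 551, 545 and 120 against 552. Their lower group means came from replicate 6, and without it the log2 change went from -0.73 to -0.15 for Ghrl and from -0.73 to -0.0037 for Sst, and the median of the 6 from -0.73 to -0.11.

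Myc, the growth-promoting helix-loop-helix factor (chromosome 15, 61985391 to 61990374, plus strand), was at 8.61, 10.45 and 6.30 FPKM in the controls and 12.08, 15.57 and 17.33 in replicates 4 to 6. The groups did not overlap, but the highest control and the lowest PGC;Ras;APC FF mouse were close. The means were 8.45 ± 2.08 and 15.0 ± 2.67 FPKM (SD, n = 3 each). Its log2 change was 0.77 ± 0.20 (SE, limma adjusted p = 0.0853), or 0.51 above the median of all tested genes, and 0.48 after median-of-ratios scaling (adjusted p = 0.179). Here replicate 5 exceeded replicate 4, in contrast to Lef1, Tcf7, Sp5 and Prox1, a difference that was not tested. Per length, Myc was at 0.475 ± 0.140 of the level of its partner gene Max in controls and at 0.409, 0.581 and 0.353 of it in replicates 4 to 6, with overlapping groups (exact permutation p = 0.8).

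**Figure D3:**
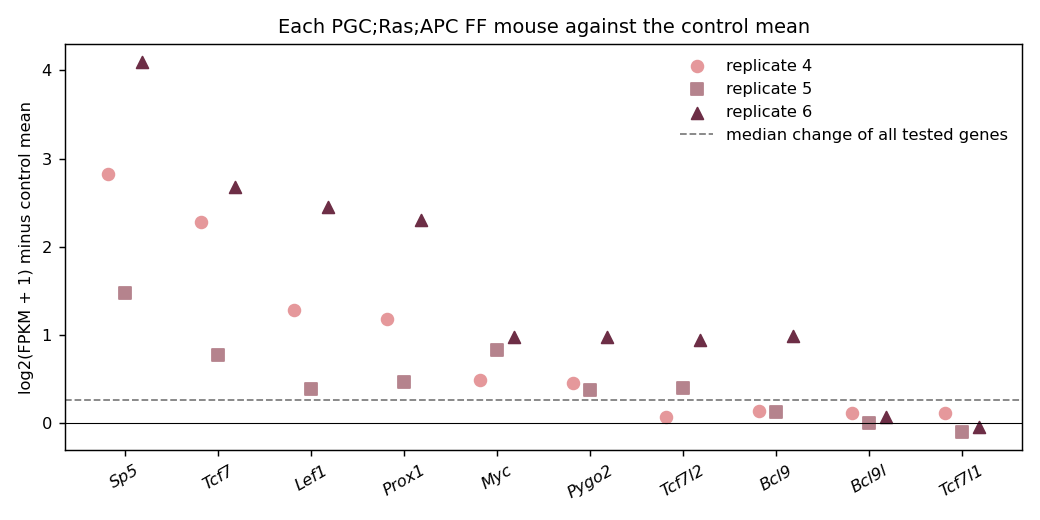
Log2(FPKM + 1) minus the control mean (vertical axis) for each of the 10 genes in replicates 4, 5 and 6, with a dashed line at 0.26, the median over all tested genes. Sp5 lies at 2.83, 1.47 and 4.09 and Tcf7 at 2.28, 0.77 and 2.68, while Bcl9l and Tcf7l1 lie between -0.10 and 0.11 in all 3 mice.

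The PGC;Ras;APC FF mice were not alike. Replicate 6 was the highest of the 3 for 8 of the 10 genes, which held for 74.0% of all tested genes. Replicates ranked 6, 4, 5 for 6 of the 10 genes (Lef1, Tcf7, Sp5, Prox1, Bcl9 and Pygo2) and for 41.5% of all tested genes, and 6, 5, 4 for Tcf7l2 and Myc. For Lef1, replicate 6 was 84.4 times the control mean and replicate 5 was 6.71 times. In controls the order of mean levels was Pygo2, Myc, Bcl9l, Tcf7l1, Tcf7l2, Bcl9, Tcf7 and Sp5 together, Prox1 and Lef1. Myc and Bcl9l, Tcf7l1 and Tcf7l2, and Tcf7 and Sp5 overlapped between control mice. In PGC;Ras;APC FF the order was Sp5, Pygo2, Myc, Tcf7, Bcl9l, Tcf7l2, Tcf7l1, Bcl9, Prox1 and Lef1, and every pair of neighbours overlapped in range.

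The genes with the most similar pattern were found by the root mean square difference, over the 6 libraries, of log2(FPKM + 1) minus the control mean, for the 2 tested genes with a log2 change of at least 1. Nearest to Sp5 were Fetub (0.168), Nkd1 (0.212), a Wnt feedback inhibitor, and Plat (0.226), tissue plasminogen activator. Fetub was at 0.54, 0.58 and 0.58 FPKM in the controls and 10.36, 4.19 and 23.43 in replicates 4 to 6. Nearest to Tcf7 were the neuronal pentraxin gene Nptx1 (0.196), the Wnt ligand gene Wnt6 (0.207) and Marcksl1 (0.213). Wnt6 was at 0.32, 0.15 and 0.44 FPKM in the controls and 5.40, 1.19 and 8.72 in replicates 4 to 6. These 6 genes were picked for their likeness to Sp5 and Tcf7, so their limma adjusted p of 0.085 each is given as a value only.

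Target genes of the pathway outside the 10 were read in the same mice. Of 13 Wnt target and feedback genes 12 were tested, 2 rose, 0 fell and 10 did not pass, with a median log2 change of 1.71 against 0.26 for all tested genes. The 2 were Notum, a secreted Wnt deacylase (log2 change 6.12 ± 0.60, limma adjusted p = 0.0119), and Wif1, which binds Wnt ligands (5.14 ± 0.46, 0.0103); both passed the filter through the PGC;Ras;APC FF libraries alone and so had to differ. The counts and the median of this list include them and are a description only. For 11 of the 12 every PGC;Ras;APC FF library exceeded every control, against 42.7% of all tested genes. Without replicate 6 and with the tested genes kept, 9 of the 12 rose, against 8.11% of all tested genes. That setting was added after seeing the data, and the lists below use it too. Without replicate 1, 2 or 3, 0 genes of the whole table passed.

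The remaining machinery of the beta-catenin complex lay near the rest of the table. Of 14 further coactivator genes 13 were tested and 0 rose or fell, with a median log2 change of 0.23. Ctnnb1, which encodes beta-catenin itself, was at 90.5, 103.3 and 101.1 FPKM in the controls and 144.1, 116.4 and 226.2 in replicates 4 to 6 (log2 change 0.66 ± 0.24, limma adjusted p = 0.11), and the chromatin remodeller gene Smarca4 at 24.3 and 28.6 as means. Without replicate 6 and with the tested genes kept, 2 of the 13 rose, against 8.11% of all tested genes. They were the ATPase genes Ruvbl1 and Ruvbl2. Among 17 corepressors and inhibitors 15 were tested and 0 rose or fell (median 0.29). Aes, a short relative of the TLE corepressors, was at 484 and 505 FPKM as means and the corepressor gene Ctbp1 at 57.2 and 73.7. In the same setting without replicate 6, 1 of the 15 rose, the histone deacetylase gene Hdac1, against the same 8.11% of all tested genes. Pygo1, the paralog of Pygo2, was at most 0.45 FPKM in any mouse.

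Genes around Myc split into its network and its growth targets. Of 12 network genes 11 were tested and 0 rose or fell (median 0.39); Max was at 17.96, 17.06 and 18.98 FPKM in the controls and 29.53, 26.81 and 49.10 in replicates 4 to 6 (limma adjusted p = 0.085), and Mlx at 22.9 and 31.1 as means. Without replicate 6 and with the tested genes kept Max rose, 1 of 11, against 8.11% of all tested genes. All 18 growth targets, mostly of ribosome assembly and nucleotide or polyamine synthesis, were tested and had a positive log2 change, from 0.47 (Ldha) to 0.90 (Fbl), with a median of 0.68 and 0 past the threshold. In 17 of 18 every PGC;Ras;APC FF library exceeded every control, against 42.7% of all tested genes. The list was chosen with earlier results of these data known, so its comparisons with the whole table are a description only. The nucleolar chaperone gene Npm1 was at 104.1, 97.9 and 86.3 FPKM in the controls and 148.6, 139.3 and 212.2 in replicates 4 to 6, and the lactate dehydrogenase gene Ldha had overlapping groups, at 289 and 398 as means. Without replicate 6 and with the tested genes kept, 9 of 18 rose, against 8.11% of all tested genes. The median was then 0.50, against 0.17 for all tested genes.

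**Figure D4:**
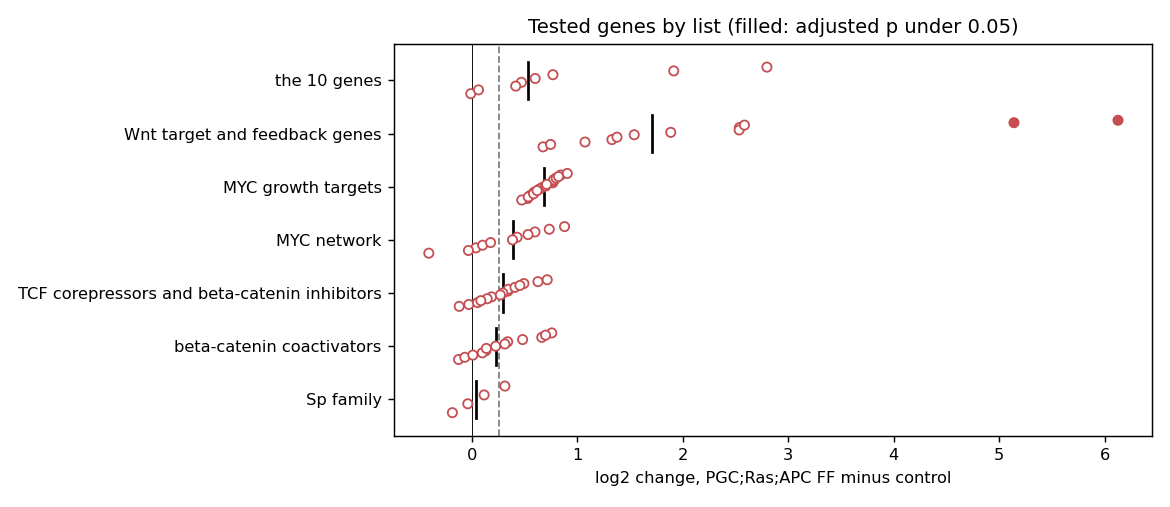
Log2 change (horizontal axis) of each tested gene in the 10-gene set and in 6 further lists, with black bars at list medians and a dashed line at 0.26, the median of all tested genes; filled points have an adjusted p under 0.05. Filled points occur among the Wnt target and feedback genes, at 6.12 (Notum) and 5.14 (Wif1), and the 18 MYC growth targets lie between 0.47 and 0.90.

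Stromal markers were read as well. The 6 smooth muscle markers summed to 1900 to 3440 FPKM in the controls and 860 to 1270 in replicates 4 to 6. None of the 6 passed (0 of 6), and all 6 had every PGC;Ras;APC FF library below every control, against 5.47% of tested genes. Without replicate 6 and with the tested genes kept, 4 of 6 fell, against 0.961%. This list was also chosen with earlier results of these data known. Actg2 was at 732 and 266 FPKM as means and Acta2 at 579 and 283. The 6 fibroblast markers summed to 250 to 262 FPKM in the controls and 257 to 397 in replicates 4 to 6 with 0 of 6 past the threshold, Dcn at 98.2 and 125 and Col3a1 at 58.2 and 66.6 as means. Fibroblasts and smooth muscle express TCF/LEF genes as well, and their part in the levels of the 10 genes was not tested.

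**Figure D5:**
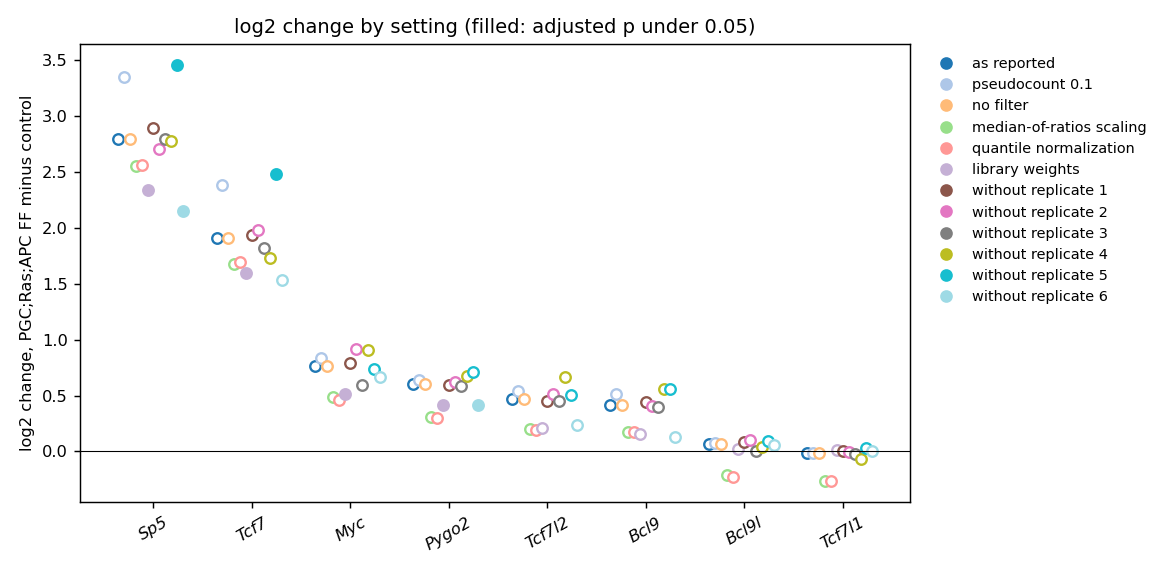
Log2 change of the 8 tested genes (vertical axis) as reported and under 11 other settings (1 colour each), filled where the limma adjusted p was under 0.05. Sp5 ranges from 2.15 to 3.46 and Tcf7 from 1.53 to 2.48, all above 0, while Bcl9l and Tcf7l1 fall on both sides of 0.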

How the data were processed

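The deposited table holds FPKM values, as the authors calculated them, written with 2 decimals, for 18988 gene rows in 6 libraries; the number of columns of per-sample values left unmapped was 0. Per the submitters' processing notes, STAR, featureCounts and the mouse build mm10 were used. Versions, annotation, strandedness and how FPKM were derived: not given in the sources used here. Coordinates and exon overlaps come from GENCODE M21 (GRCm38, the assembly of mm10) by symbol, and promoter sequences from RefSeq (GRCm38).

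FPKM are not counts, so log2(FPKM + 1) was fitted with limma 3.58.1 (R 4.3.3, eBayes with trend, genotype as the only term, two-sided) in genes with at least 1 FPKM in at least 3 of the 6 libraries. Fold changes on that scale understate those of low genes. Benjamini-Hochberg adjustment used all 11857 tested genes and a threshold of 0.05. The fit was tested on simulated data in which each gene had the same spread in all 6 libraries. Here library weights ran from 0.126 to 2.5, so that simulation does not cover the unequal spread of these libraries. Single values used exact permutation tests (scipy 1.17.1). Absolute depth is unknown, so no counting interval is given. Relative depth came from low values of 26 short RNAs, with 5 to 12 values per library. The step of 1 read per library and a shared length offset were fitted to bring these values near whole reads. All lay within 0.15 reads except in replicate 2, where 11 of 12 did. This closeness is partly a product of the fit. The members and the gene lists were chosen with earlier results of these data known. Outside the 10 genes, those named were the largest changes past the threshold in a list or its 2 most abundant tested genes; Krt5, Krt14, Trp63, Krt13, Lyve1, Flt4, Cd3e, Pygo1, Ruvbl1, Ruvbl2, Hdac1, Fbl, Sp7 to Sp9, Apc, Eif2s3y and the genes of the closing section were named after their values were seen. Alternatives were pseudocount 0.1, TCF/LEF shares of FPKM + 1, no filter, 2 other scalings, library weights and leaving out each library.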

Additional observations from a re-analysis of the deposited data

How the results depend on the processing

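No paired analysis was possible because the replicate numbers 1 to 3 and 4 to 6 are not shared between the groups. The number of genes called over the whole table was 18 as reported, 34 with a pseudocount of 0.1, 9 with no filter and 3488 with library weights (0.126 for replicate 6 to 2.5 for replicate 2). It ranged from 0 to 938 over the fits that each leave out 1 library: 0 without replicate 1, 2 or 3 (with 2270, 2516 and 3056 genes at an unadjusted p under 0.05), 5 without replicate 4, 458 without replicate 5 and 938 without replicate 6, or 1076 with the tested genes kept, a setting chosen after seeing the data. The number of the 10 genes called was 0 as reported, 4 with library weights (Sp5, Tcf7, Pygo2 and Myc), from 0 to 2 over the fits that leave out 1 library, and 3 without replicate 6 with the tested genes kept. The causes were not tested. Tcf7l1, near 0, took a positive sign with library weights (0.012) and ranged from -0.0714 to 0.0336 when 1 library was left out (0.0031 without replicate 1, 0.0078 without replicate 6). Bcl9l took a negative sign after median-of-ratios scaling (-0.21) and quantile normalization (-0.23). The other 6 tested genes kept a positive log2 change in all settings run, with Sp5 and Tcf7 furthest from 0. The Lef1 and Prox1 changes were 3.33 and 2.53 with a pseudocount of 0.1 against 1.37 and 1.32 as reported, since the pseudocount sets the scale of low values, and 0.83 and 0.82 without replicate 6. Shares of the 4 TCF/LEF genes kept their direction in every setting run. The difference for Lef1 was 7.23 percentage points as reported, 3.65 with shares taken of FPKM + 1, 4.18 without replicate 6 and 9.81 without replicate 5, and that for Tcf7l2 was -10.6 as reported, -7.4 with FPKM + 1, -5.6 without replicate 4 and -17.0 without replicate 5. Absolute depth is unknown and limits what can be said of Lef1 in controls.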

Other observations

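Several low transcription factor genes of the same lists did not enter the test but had no overlap between the groups, which held for 31.9% of all 18988 rows on the higher side. They were picked after their values were seen and carry no test. Sp7, Sp8, Sp9, Trp63 and Pax5, also untested, overlapped between the groups. Mycn, a paralog of Myc, was at 0.52, 0.60 and 0.41 FPKM in the controls and 1.65, 0.78 and 4.96 in replicates 4 to 6. Ascl2, a stem cell factor of the intestinal crypt, was at 0.39, 0.42 and 0.49 FPKM and at 0.60, 0.85 and 3.71. Sp6, of the same family as Sp5, was at 0.17, 0.14 and 0.25 FPKM in the controls and 0.95, 0.52 and 2.06 in replicates 4 to 6. The beta-catenin antagonist genes Sox7 and Sox17 had control means of 0.40 and 0.387 FPKM and PGC;Ras;APC FF means of 1.12 and 0.65. In Mycn, Ascl2, Sp6, Sox7 and Sox17 alike, replicate 6 was the highest mouse.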
